A study of Mus musculus with 6 samples.

Results

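Type I interferon-stimulated genes were followed in mouse bone marrow exposed to medium from kidney tumour cells. The set holds 41 named genes, and each was found by its symbol among the 45706 Ensembl gene identifiers of the count table. RNA-seq libraries came from marrow in medium conditioned by VpR83, VpR99, VpR126 or VpR2020 cells (4 libraries, 1 per line) and from marrow in control medium (2 libraries, replicates 1 and 2). The VpR lines are mouse clear cell renal cell carcinoma (ccRCC) lines, and the study models tumours that resist combined blockade of the checkpoints PD-1 and CTLA-4. The sample labels call the reference control medium, whereas the series' design text calls it freshly isolated marrow, so any effect of culture itself cannot be told apart from that of the conditioned medium. Neither strain, age, culture time nor the number of animals is given in the sources used here, and nothing says that libraries came from separate cultures or animals, so p-values measure only the spread between these libraries. Each line is 1 library, and differences between lines therefore had no replicate check. In the table's header VpR83 is also tagged Ctrl, VpR99 is tagged T1 and VpR126 is tagged LT2, with no explanation of these tags in the labels.

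Type I interferons bind the receptor chains IFNAR1 and IFNAR2, whose kinases JAK1 and TYK2 phosphorylate STAT proteins, STAT2 among them. Together with IRF9 these form the complex ISGF3, which binds the interferon-stimulated response element (ISRE) and raises transcription of antiviral genes. In marrow and macrophages a low tonic interferon signal keeps part of this programme on without infection.

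An ISRE core stood in the promoters of many of these genes. RefSeq promoter windows (GRCm38.p6, 250 bases before to 50 after a transcription start) were found for 30 of the 41 genes. The core searched was GAAA, then any 2 bases, then GAAA, or on the other strand TTTC, any 2 bases and TTTC, with overlapping matches allowed. It was present for 15 of these 30 genes, against 3.99% of the 27025 genes with a window. Per window it was present in 16 of 35, against 3.44% of all 32851 windows. The stretches below are examples from the 16 windows with a core, and other genes with a core, such as Rsad2, are not shown. They belong to genes described below whose levels under VpR126 over VpR83 medium ran from 66.2-fold (Ifit3b) to 3.07-fold (Bst2). They run 5′ to 3′ on the strand of the gene, with the cores in capitals and up to 20 bases on either side.
Isg15: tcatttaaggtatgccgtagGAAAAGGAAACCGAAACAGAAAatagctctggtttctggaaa
Ifit1: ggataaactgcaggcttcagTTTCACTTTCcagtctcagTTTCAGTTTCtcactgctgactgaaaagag
Ifit3: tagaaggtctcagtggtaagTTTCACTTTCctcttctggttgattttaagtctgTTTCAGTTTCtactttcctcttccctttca
Ifit3b: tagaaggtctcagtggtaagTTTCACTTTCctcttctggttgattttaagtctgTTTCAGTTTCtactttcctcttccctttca
Cxcl10: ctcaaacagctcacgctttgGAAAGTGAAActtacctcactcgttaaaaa
Oas1a: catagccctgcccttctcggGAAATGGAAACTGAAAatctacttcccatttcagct
Bst2: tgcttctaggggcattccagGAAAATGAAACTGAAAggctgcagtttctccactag
Stat2: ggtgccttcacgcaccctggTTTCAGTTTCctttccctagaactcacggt

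In Isg15 (chr4:156200855-156200916, minus strand) 3 cores overlapped, the first beginning 78 bases before the start. In Ifit1 (chr19:34640765-34640833, plus strand) 2 cores lay 104 and 85 bases before it. The stretches of Ifit3 (chr19:34583353-34583436) and Ifit3b (chr19:34607749-34607832), both on the plus strand, were identical. The single core of Cxcl10 (chr5:92349073-92349122, minus strand) lay 213 bases before the start. Oas1a (chr5:120907510-120907565) and Bst2 (chr8:71537567-71537622), both on the minus strand, each had 2 overlapping cores, and Stat2 (chr10:128270256-128270305, plus strand) had 1 core 222 bases before the start. Ifi44, the gene with the widest difference between media, had a window without this core, as did Ifit2 and Irf7. A match of these letters is a description and does not show that a factor bound there. Of the 9 genes with a window that were called higher, 6 held the core, and of the 21 with a window that were not called, 9 did.

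The libraries were deep enough to measure every gene of the set. Total counts were 19412158 to 28055913 in 3 conditioned libraries, 129120559 in VpR99, and 27448621 and 18629708 in control replicates 1 and 2. All 41 genes passed the low-count filter, and the lowest count of any of them was 16 (Ifi44 under VpR83 medium). Summed markers of macrophages were 7546 to 27460 CPM (counts scaled by TMM library size) in conditioned medium, against 672 and 738 CPM in the controls. All 12 were called higher, against 22.5% of all 15141 genes tested. Summed neutrophil markers were 3635 to 17640 CPM in conditioned medium, against 84260 and 91640 CPM in the controls. Of these 13 markers 10 were called lower, against 19.7% of all genes tested. In such bulk libraries fewer cells of a type and less RNA per cell cannot be told apart. Epithelial and kidney tumour markers summed to 9.72 to 24.2 CPM in conditioned medium and 23.0 and 24.8 CPM in the controls.

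The 41 genes divided the conditioned media into a high and a low pair. Under VpR126 and VpR99 media every one of the 41 genes was higher than under VpR83 and VpR2020 media, an arrangement held by 19.0% of all 15141 genes tested. The order VpR126, VpR99, VpR2020, VpR83 from high to low was held by 37 of the 41 genes, against 6.91% of all genes tested. VpR126 gave the highest value for 40 genes (31.7% of all genes), and VpR83 the lowest for 38 (22.6%). The exception at the top was Ifi27l2a, which was highest under VpR99 medium (28.9%). The 3 genes not lowest under VpR83 medium were Isg20, Samd9l and Ifi35, which were lowest under VpR2020 medium (19.1%). The share of all counts taken by the set was 0.199% (VpR83), 0.673% (VpR99), 1.21% (VpR126) and 0.247% (VpR2020) in conditioned medium, and 0.144% and 0.173% in control replicates 1 and 2.

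**Figure D1:**
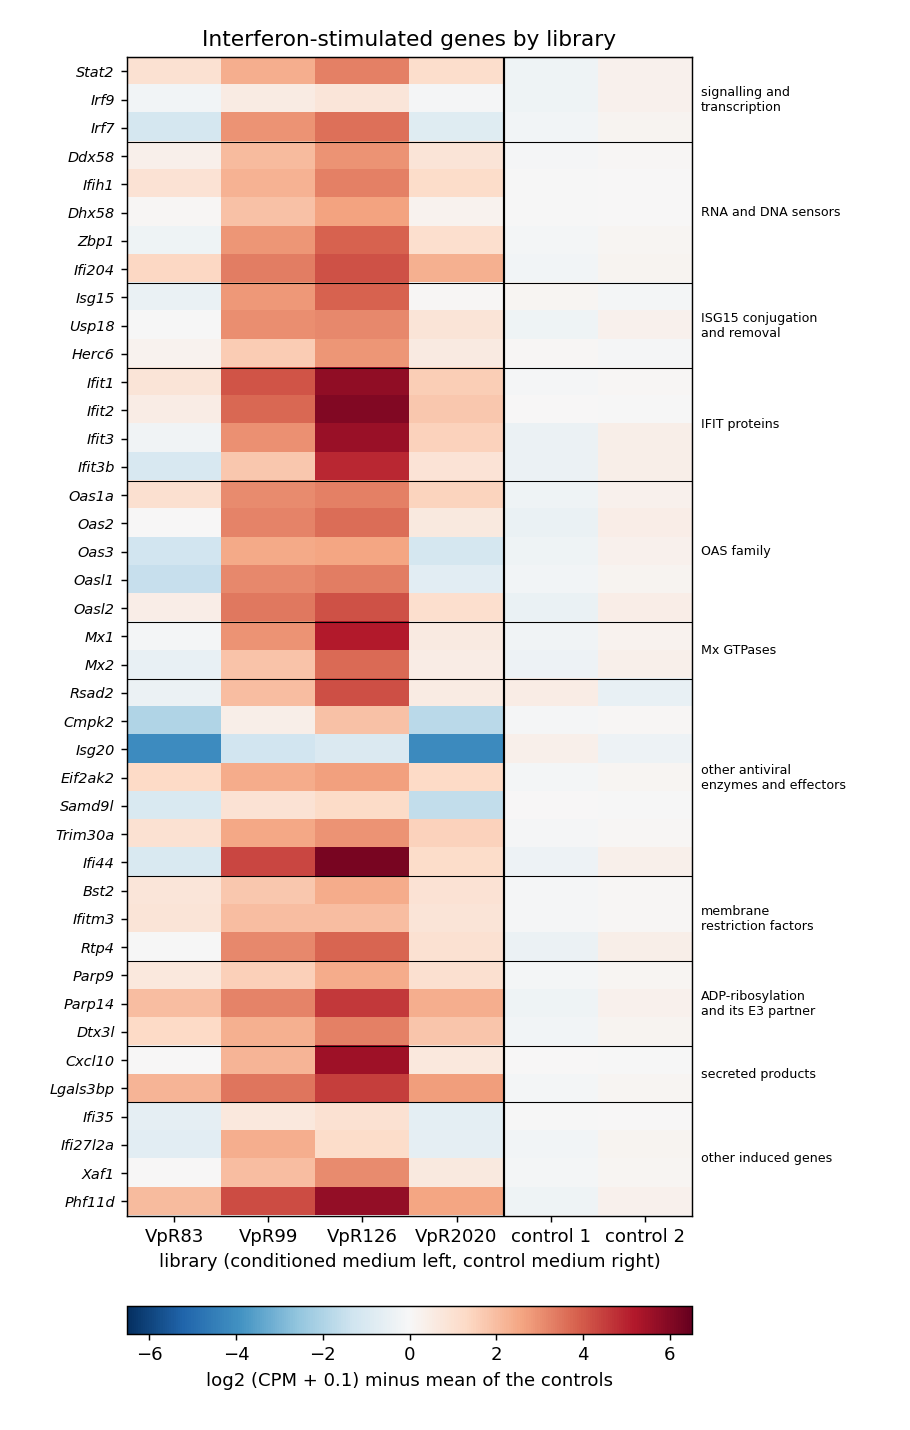
Each row is 1 of the 41 genes, grouped by role, and each column 1 library, with the 4 conditioned libraries left of the line and the 2 controls right of it. Colour gives log2 of CPM plus 0.1 minus the mean of the controls: VpR99 and VpR126 are red in all rows but Isg20, while VpR83 and VpR2020 hold both red and blue rows.

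Set against the controls, nearly all values of the high pair were higher, while those of VpR83 lay on either side. These comparisons use 1 library per line, so they have no test. A gene was counted when its log2 CPM (prior count 2) differed from the mean of the controls by more than 2-fold. Under VpR126 medium 39 of 41 genes were past 2-fold higher (21.9% of all genes tested) and 0 past 2-fold lower (22.3%), with a median log2 difference of 3.30. Under VpR99 medium 36 were past 2-fold higher (18.0%) and 1, Isg20, lower (18.7%), with a median of 2.41. Under VpR2020 medium 17 were past 2-fold higher (20.8%) and 4 lower (23.1%), with a median of 0.87. Under VpR83 medium 7 were past 2-fold higher (19.6%) and 8 lower (22.1%), with a median of 0.01. The median over all genes tested lay between -0.06 and -0.01 for the 4 lines. VpR126 and VpR99 each lay above both controls for 40 genes (44.5% and 45.1% of all genes) and below both for Isg20 (47.2% and 45.7%). VpR2020 lay above both controls for 31 genes (44.0%) and below both for 8 (47.9%). VpR83 lay above both for 20 (44.0%), below both for 13 (47.6%) and between them for 8. The controls differed less from each other: control replicate 1 was below replicate 2 for 34 of the 41 genes, with a median log2 difference of -0.28, and only Rsad2 was past 2-fold (higher in replicate 1, against 3.55% of all genes, with 0 past 2-fold lower against 1.57%).

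**Figure D2:**
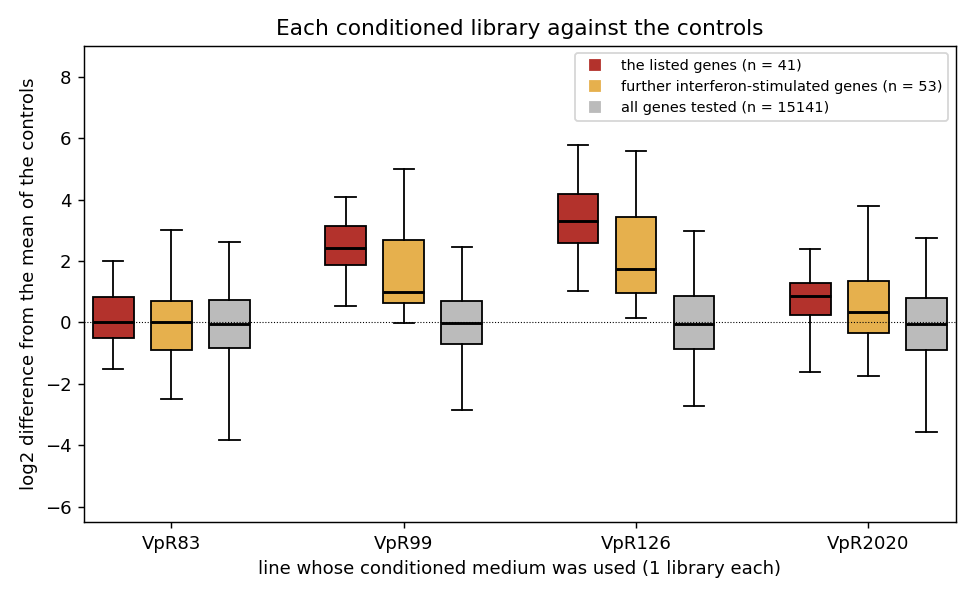
Boxes give, for each line, the 25th to 75th percentile over genes of the log2 difference from the mean of the controls, with the median as a bar and whiskers at the 5th and 95th percentiles. The 41 listed genes have medians of 2.41 and 3.30 under VpR99 and VpR126 media and of 0.01 and 0.87 under VpR83 and VpR2020 media, while the 15141 genes tested are centred near 0 for every line.

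The lines were also set against each other directly. VpR126 exceeded VpR2020 for 41 of 41 genes, by more than 2-fold for 40 (13.1% of all genes tested, with 4.67% past 2-fold lower). VpR99 exceeded VpR2020 for 41 genes as well, by more than 2-fold for 33 (12.1%, with 7.29% lower). VpR83 lay below VpR126 for all 41, by more than 2-fold for 40 (16.3%, with 7.49% higher), and below VpR99 for all 41, by more than 2-fold for 37 (10.4%, with 3.30% higher). Within the high pair, VpR99 was below VpR126 for 40 genes, and 16 were past 2-fold lower (12.5%) and 1 higher (9.65%). Within the low pair, VpR83 was below VpR2020 for 38 genes, and 6 were past 2-fold lower (7.35%) and 0 higher (4.76%). Summed markers of some other cell types were also higher in the high pair, and others were not. For VpR83, VpR99, VpR126 and VpR2020, conventional dendritic cell markers summed to 35.7, 84.6, 131 and 52.5 CPM. T and NK cell markers summed to 3.70, 4.58, 8.79 and 3.21 CPM, against 99.8 and 107.6 CPM in the controls. All 13 of them were called lower in conditioned medium (19.7% of all genes tested). Stromal and endothelial markers summed to 32.3, 70.6, 53.0 and 30.15 CPM for the same lines. Summed monocyte (2022, 3056, 1598, 1178), megakaryocyte and platelet (664, 2337, 1489, 2340) and erythroid markers (0.622, 0.519, 5.24, 2.38 CPM) did not divide this way. The median log2 difference of the 8 monocyte markers from the controls did, at -2.40 (VpR83), -1.38 (VpR99), -0.03 (VpR126) and -1.68 (VpR2020). In the controls erythroid markers summed to 5978 and 2683 CPM. All 12 were called lower in conditioned medium (19.7% of all genes tested), and 3 had 0 counts in all conditioned libraries. Summed plasmacytoid dendritic cell markers were 126.1 (VpR83), 171 (VpR99), 300 (VpR126) and 153 CPM (VpR2020), against 635 and 682 CPM in the controls. Of those 12 markers 10 were called lower in conditioned medium (19.7% of all genes tested) and 1, Tcf4, higher (22.5%). Klk1 and Cd209d had 0 counts under VpR83 and VpR2020 media. Summed neutrophil markers were 3635 (VpR83), 17640 (VpR99), 10310 (VpR126) and 6690 CPM (VpR2020), and summed B cell markers 149, 251, 464 and 145 CPM for the same lines, against 1183 and 1374 CPM in the controls, while summed macrophage markers were lowest under VpR99 medium (7546 CPM) and highest under VpR126 medium (27460 CPM). The part of these cells in the order of the lines was not tested.

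Over the groups as a whole, 12 of the 41 genes were called higher in conditioned medium and 0 lower. The test was edgeR's quasi-likelihood test over all 15141 genes with Benjamini-Hochberg adjustment, with a call at an adjusted p below 0.05. Of all genes tested, 22.5% were called higher and 19.7% lower, so the 12 called genes (Ifih1, Ifi204, Oas1a, Eif2ak2, Trim30a, Bst2, Ifitm3, Parp9, Parp14, Dtx3l, Lgals3bp and Phf11d) are to be read against that level. The median log2 fold change of the 41 was 2.32, against -0.01 over all genes tested, and 40 of 41 fold changes were positive. All 4 conditioned libraries lay above both controls for 20 genes (32.0% of all genes tested) and below both for 1, Isg20 (33.3%). For the other 20 genes the groups overlapped. The 12 calls rested on single libraries and settings in part. Without control replicate 1 or control replicate 2 no gene of the set was called by edgeR (3 and 6 had an unadjusted p below 0.05), where the single control left is taken to vary as much as the conditioned group does. Calls over all genes fell in both of these fits as well, but did not vanish as those of the set did. The median log2 fold change of the 41 genes was 2.19 without control replicate 1 and 2.56 without control replicate 2. Without VpR99 6 were called higher (3504 of 15044 genes tested), without VpR83 21 (2927 of 15037), and without VpR126 13 (3657 of 15107). DESeq2 called 26 higher and 0 lower, against 3938 and 3465 of the 15141 genes fitted. Without a low-count filter edgeR called 3 higher (Eif2ak2, Ifitm3 and Lgals3bp), against 3195 of 29681 genes. Settings that cost a gene its call are named with the gene below only beyond these losses without a control or without the filter. No gene of the set was lower at an unadjusted p below 0.05 in edgeR (0 of 41), while edgeR with library totals only, edgeR without VpR126, DESeq2 and limma voom each gave 1 such gene. None of these fits called a gene of the set lower.

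**Figure D3:**
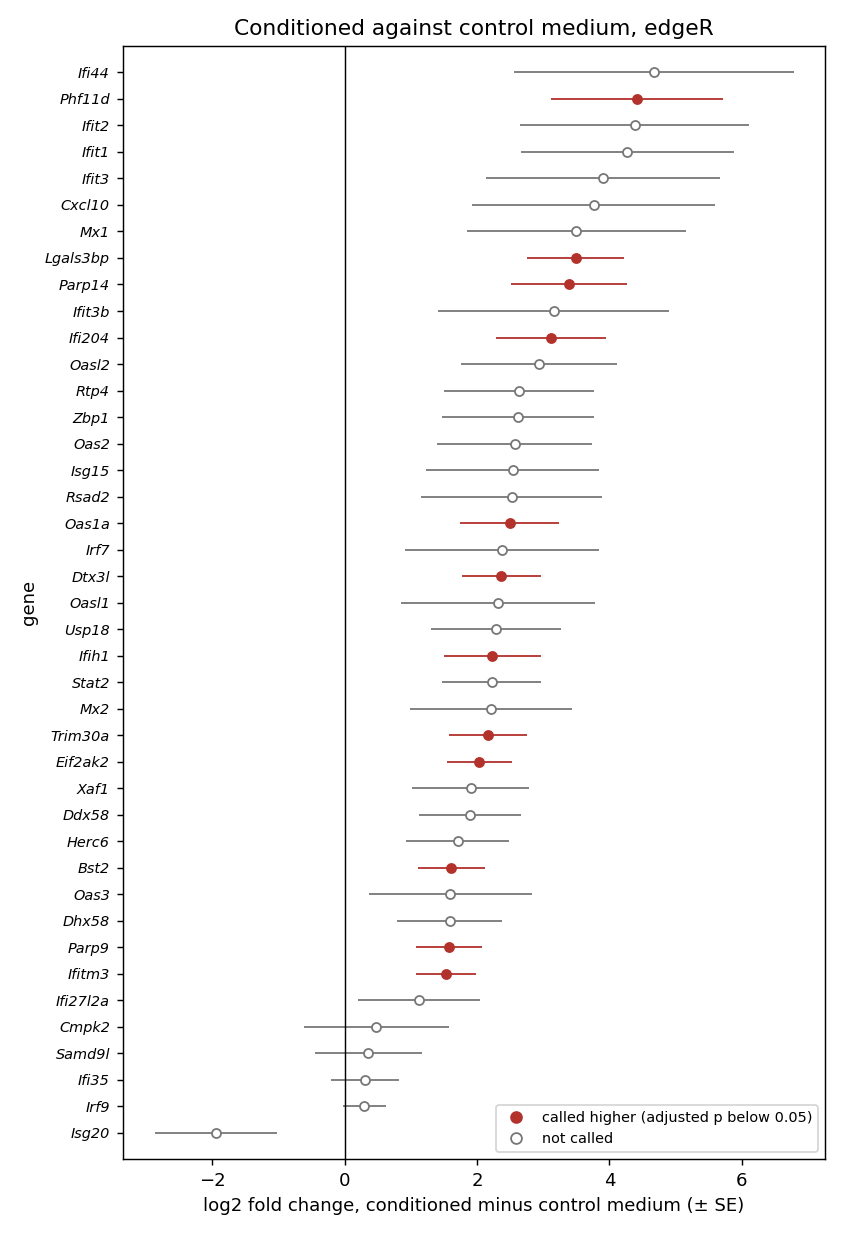
Points give the log2 fold change of conditioned minus control medium for each of the 41 genes, with bars of 1 SE, and filled points mark the 12 called higher. Ifi44, Ifit2 and Ifit1 stand among the highest with long bars and no call, while called genes such as Lgals3bp and Eif2ak2 have short bars. Isg20 is the only point below 0.

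Of the transcription factor genes, Stat2 and Irf7 were far higher in the high pair and Irf9 differed little. Every ± beside a log2 fold change is an SE, taken as the size of the fold change over the root of edgeR's F. Stat2, which encodes the STAT partner particular to type I and type III interferon signalling (chromosome 10, 128270559 to 128292849, GRCm38), had 88.9 (VpR83), 228 (VpR99), 437 (VpR126) and 99.4 CPM (VpR2020), against 36.7 and 54.7 CPM in the controls. All 4 conditioned libraries were above both controls, but the fold change of 2.22 ± 0.75 missed the threshold (edgeR adjusted p = 0.0524, range over alternatives 0.00236 to 0.243). It was called without VpR83, VpR126 or VpR2020. Irf7, which encodes the factor that amplifies interferon production (chromosome 7, 141262706 to 141266481), had 21.5 (VpR83), 371 (VpR99), 584.5 (VpR126) and 27.7 CPM (VpR2020), against 43.2 and 53.5 CPM in the controls. The high pair was thus above both controls and the low pair below both, and the groups overlapped (2.38 ± 1.46, edgeR adjusted p = 0.225). Irf9, the DNA-binding subunit of ISGF3, had 52.4, 87.0, 102 and 57.8 CPM under VpR83, VpR99, VpR126 and VpR2020 media, against 49.7 and 72.5 CPM in the controls (0.29 ± 0.33, edgeR adjusted p = 0.488). The Irf9 locus shares 2.3% of its exon bases with Rnf31.

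Of the 5 genes of cytosolic sensors of viral nucleic acid, 2 were called higher in conditioned medium, against 22.5% of all genes tested. All 5 were past 2-fold above the controls in the VpR99 library (18.0% of all genes) and in the VpR126 library (21.9%), which had no test. Ifi204, a PYHIN family DNA sensor gene (chromosome 1, 173747293 to 173766943), had 72.6 (VpR83), 289 (VpR99), 503 (VpR126) and 144 CPM (VpR2020), against 25.5 and 32.4 CPM in the controls, and rose by 3.12 ± 0.83 (edgeR adjusted p = 0.0249). Its transcripts share 20% of their 50-base words with other genes, led by Ifi211, Mndal and Ifi207, so its count is uncertain. Ifih1, the gene of the RNA sensor MDA5 (chromosome 2, 62595798 to 62646255), had 36.4 (VpR83), 91.6 (VpR99), 183 (VpR126) and 43.2 CPM (VpR2020), against 18.3 and 19.4 CPM in the controls, and rose by 2.23 ± 0.73 (edgeR adjusted p = 0.0481). Without VpR126 its fold change was 1.61, and it was not called without VpR99, by voom, or when libraries were scaled by upper quartiles or by totals only. Ddx58, which encodes the RNA sensor RIG-I, and Dhx58, which encodes their regulator LGP2, had fold changes of 1.90 ± 0.77 and 1.58 ± 0.79 (edgeR adjusted p = 0.0897 and 0.147), and all 4 conditioned libraries were above both controls for both genes. Zbp1, a sensor of Z-form nucleic acid, had 12.8 (VpR83), 112.5 (VpR99), 224 (VpR126) and 33.4 CPM (VpR2020), against 14.2 and 16.9 CPM in the controls, with only VpR83 below them (2.62 ± 1.15, edgeR adjusted p = 0.109).

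The ISG15 system showed the split of the media without a call in the main edgeR test. DESeq2 called Isg15, Usp18 and Herc6 higher, among 3938 higher calls over the 15141 genes fitted. Isg15, a ubiquitin-like protein gene (chromosome 4, 156199424 to 156200818), had 8.57 (VpR83), 83.2 (VpR99), 167 (VpR126) and 12.1 CPM (VpR2020), against 12.7 and 10.6 CPM in the controls. The low pair was at or near control level, and the fold change of 2.54 ± 1.31 was not called (edgeR adjusted p = 0.159). Usp18, whose product removes ISG15 and restrains the interferon receptor (chromosome 6, 121245906 to 121270917), had 8.02 (VpR83), 65.3 (VpR99), 71.7 (VpR126) and 14.7 CPM (VpR2020), against 6.63 and 9.78 CPM in the controls (2.29 ± 0.99, edgeR adjusted p = 0.105). VpR99 and VpR126 were close for Usp18 and further apart for Isg15. Herc6, the ISG15 ligase gene of the mouse, had a fold change of 1.71 ± 0.78 (edgeR adjusted p = 0.121), with all 4 conditioned libraries above both controls. It shares 12.5% of its 50-base words with other genes.

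The Ifit genes, whose proteins bind foreign RNA ends, had some of the widest differences between media. They lie together on chromosome 19 between 34550694 and 34650009. Ifit2 had 22.6 (VpR83), 217 (VpR99), 1045 (VpR126) and 55.1 CPM (VpR2020), against 16.5 and 15.6 CPM in the controls. Ifit1 had 8.86 (VpR83), 84.1 (VpR99), 272 (VpR126) and 15.1 CPM (VpR2020), against 4.67 and 5.17 CPM in the controls. All 4 media gave values above both controls for these 2 genes, yet neither fold change was called (4.38 ± 1.73 and 4.27 ± 1.61, edgeR adjusted p = 0.0827 and 0.0727). Both were called without VpR83, and without VpR126 the fold changes were 2.63 and 2.89. Ifit3 had 7.03 (VpR83), 65.1 (VpR99), 417 (VpR126) and 23.4 CPM (VpR2020), against 6.30 and 10.9 CPM in the controls. Ifit3b had 1.39 (VpR83), 10.2 (VpR99), 92.1 (VpR126) and 5.53 CPM (VpR2020), against 2.23 and 3.90 CPM in the controls. VpR83 was thus within the control range for Ifit3 and below it for Ifit3b. Of their 50-base words, Ifit3 shares 51.2% and Ifit3b 45.0% with other genes, mainly each other, so the split of reads between them is uncertain (fold changes 3.90 ± 1.77 and 3.16 ± 1.74, not called). VpR126 over VpR83 was 46.2-fold for Ifit2 (95% counting interval 42.6 to 50.1), 30.7-fold for Ifit1 (27.0 to 35.1), 59.3-fold for Ifit3 (51.4 to 68.8) and 66.2-fold for Ifit3b (48.1 to 93.8). These intervals are exact and cover counting error only.

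Several genes of the Oas family, though not Oasl1, encode enzymes that make oligoadenylates, the activators of RNase L, and the Mx genes encode antiviral GTPases. Oas1a (chromosome 5, 120896256 to 120907521) had 30.7 (VpR83), 128 (VpR99), 145.5 (VpR126) and 41.7 CPM (VpR2020), against 12.6 and 18.1 CPM in the controls, and rose by 2.49 ± 0.76 (edgeR adjusted p = 0.0378). It shares 57.6% of its 50-base words with other genes, led by Oas1g, and was not called without VpR99 or by voom. Oasl2, with 37.7 (VpR83), 300.1 (VpR99), 491.5 (VpR126) and 59.9 CPM (VpR2020) against 20.8 and 37.3 CPM in the controls, and Oas2 (fold changes 2.94 ± 1.18 and 2.57 ± 1.17) were not called. Oas3 had 26.9 (VpR83), 345.5 (VpR99), 375 (VpR126) and 28.8 CPM (VpR2020), against 52.8 and 75.4 CPM in the controls, and Oasl1, whose mouse protein represses translation of Irf7, had 3.22, 82.3, 95.7 and 5.81 CPM in the same order of lines, against 8.27 and 10.5 CPM. Both had the high pair above and the low pair below the controls (1.6 ± 1.23 and 2.32 ± 1.46, not called). Mx1 (chromosome 16, 97447035 to 97462907) had 9.99 (VpR83), 83.1 (VpR99), 397.5 (VpR126) and 16.6 CPM (VpR2020), against 9.27 and 13.1 CPM in the controls, and Mx2 was at 44.1 CPM under VpR126 medium against 2.60 and 4.23 CPM in the controls (3.5 ± 1.66 and 2.22 ± 1.23, not called).

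**Figure D4:**
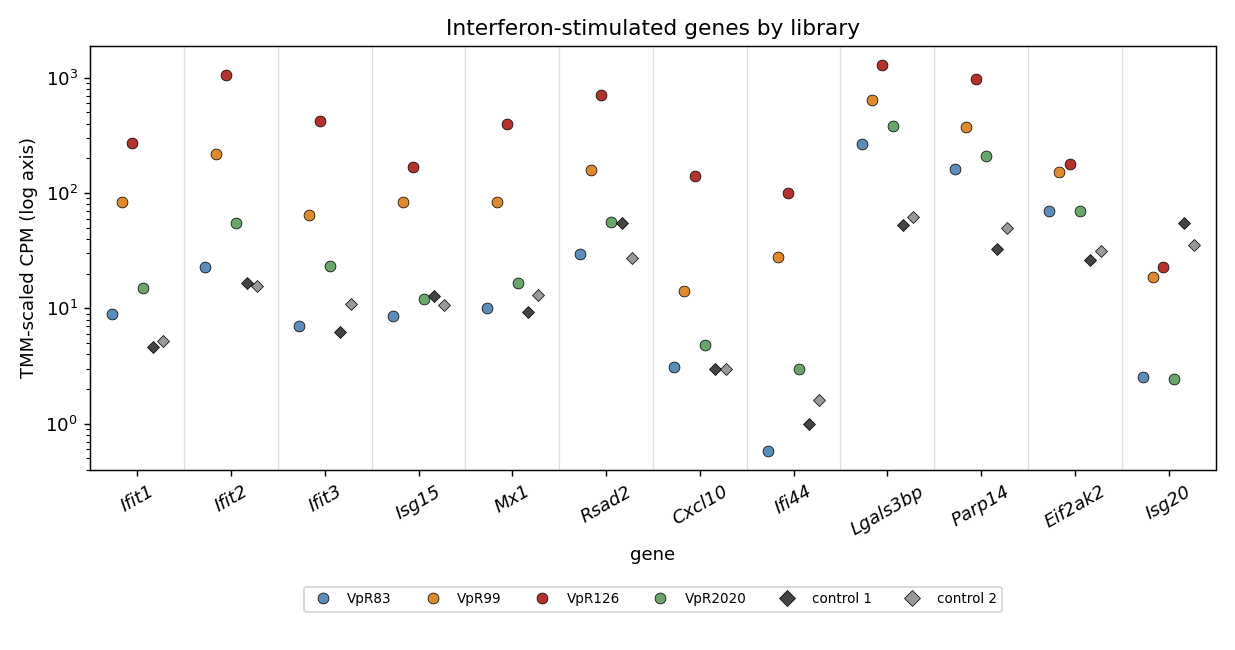
TMM-scaled CPM on a log axis for 12 of the genes, with circles for the 4 conditioned libraries and diamonds for the 2 controls. For Ifit1, Ifit2, Ifit3, Mx1 and Cxcl10 the VpR126 point stands well above the VpR99 point, Lgals3bp, Parp14 and Eif2ak2 have all circles above the diamonds, and Isg20 has all circles below them.

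Among the further antiviral effector genes, 2 of 7 were called higher, a share near the 22.5% of all genes tested. This group held the genes that ran lowest against the controls in the low pair. Eif2ak2, which encodes the RNA-activated kinase PKR (chromosome 17, 78852564 to 78882573), had 70.0 (VpR83), 152 (VpR99), 180 (VpR126) and 70.5 CPM (VpR2020), against 26 and 31.6 CPM in the controls, and rose by 2.04 ± 0.49 (edgeR adjusted p = 0.0175). Trim30a, a TRIM family gene (chromosome 7, 104409025 to 104465193), had 117 (VpR83), 339 (VpR99), 449 (VpR126) and 169 CPM (VpR2020), against 56.3 and 62.9 CPM in the controls, and rose by 2.17 ± 0.59 (edgeR adjusted p = 0.0267). For both genes even the lowest conditioned library was well above the controls. Rsad2, the gene of the antiviral enzyme viperin, had 29.4 (VpR83), 158 (VpR99), 703 (VpR126) and 56.4 CPM (VpR2020), against 55.0 and 27.3 CPM in the controls. VpR83 thus lay between the controls and VpR2020 just above both (2.52 ± 1.37, edgeR adjusted p = 0.177). Its neighbour Cmpk2, a mitochondrial nucleotide kinase gene, had 14.7 (VpR83), 74.8 (VpR99), 216 (VpR126) and 16.9 CPM (VpR2020), against 54.0 and 61.6 CPM in the controls. Samd9l had 51.9 (VpR83), 198 (VpR99), 249 (VpR126) and 33.8 CPM (VpR2020), against 106 and 102 CPM in the controls. For these 2 genes the low pair was below both controls and the high pair above, and the fold changes were near 0 (0.48 ± 1.09 and 0.36 ± 0.81). Without VpR126 they were -0.68 and -0.12. Ifi44 had the widest spread of the set, with 0.586 (VpR83), 28.0 (VpR99), 99.5 (VpR126) and 2.99 CPM (VpR2020), against 0.9998 and 1.598 CPM in the controls, and VpR126 over VpR83 was 169.8-fold (counting interval 104.4 to 298). Its fold change of 4.67 ± 2.12 was not called (edgeR adjusted p = 0.118).

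Isg20, an RNA exonuclease gene, was the exception of the set (chromosome 7, 78913424 to 78920396). It had 2.53 (VpR83), 18.9 (VpR99), 23.0 (VpR126) and 2.43 CPM (VpR2020), against 54.9 and 35.7 CPM in the controls. All conditioned libraries were below both controls, although the high pair was still above the low pair, and the fold change of -1.94 ± 0.93 was not called (edgeR adjusted p = 0.134). Besides Isg20, 7 genes had the low pair below both controls: Irf7, Oas3, Oasl1, Cmpk2, Samd9l, Ifi35 and Ifi27l2a. For these 7 the high pair was above both controls, a pattern held by 0.693% of all genes tested.

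Some genes of membrane-bound and secreted products were among the most abundant of the set in conditioned medium, and others were not. Per kilobase of exon, Ifitm3 averaged 1076 CPM in conditioned medium and 372 CPM in control medium, Lgals3bp 226 and 20.1 CPM, and Bst2 212 and 69.4 CPM. On the same scale Rtp4 averaged 39.1 and 6.30 CPM, and Cxcl10 18.0 and 1.32 CPM. Ifi27l2a, a gene of another group, averaged 199.9 and 92.0 CPM. Ifitm3, which blocks entry of enveloped viruses (chromosome 7, 141009586 to 141010770), had 445 (VpR83), 999 (VpR99), 1020 (VpR126) and 455 CPM (VpR2020), against 242 and 263 CPM in the controls, and rose by 1.53 ± 0.45 (edgeR adjusted p = 0.0338). Bst2, the gene of tetherin, which holds budding virions at the cell surface (chromosome 8, 71534255 to 71537456), had 107.5 (VpR83), 210 (VpR99), 330.5 (VpR126) and 119 CPM (VpR2020), against 58.8 and 66.5 CPM in the controls, and rose by 1.61 ± 0.51 (edgeR adjusted p = 0.0420). Neither was called without VpR99 or with library totals only, Bst2 was not called under upper-quartile scaling either, and Ifitm3 shares 10% of its 50-base words with other genes. Bst2 also marks plasmacytoid dendritic cells in the mouse, whose 12 other markers are described above. Rtp4, which shares 11.6% of these words, was not called (2.64 ± 1.14, edgeR adjusted p = 0.105). Lgals3bp, which encodes a secreted galectin-binding glycoprotein (chromosome 11, 118392751 to 118402092), had 267 (VpR83), 646 (VpR99), 1283 (VpR126) and 378 CPM (VpR2020), against 53.1 and 61.5 CPM in the controls. It had the lowest adjusted p of the 41 genes, with a rise of 3.49 ± 0.73 (edgeR adjusted p = 0.0113). Cxcl10, a chemokine gene for T and NK cells bearing CXCR3, had 3.08 (VpR83), 14.2 (VpR99), 140.2 (VpR126) and 4.81 CPM (VpR2020), against 2.999 and 2.961 CPM in the controls. Cxcl10 was 45.6-fold higher under VpR126 than under VpR83 medium (counting interval 36.7 to 57.3). Its fold change was 3.76 ± 1.83 (edgeR adjusted p = 0.140) and 1.33 without VpR126.

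All 3 genes of the ADP-ribosylation group were called higher, against 22.5% of all genes tested. Parp14, a mono-ADP-ribosyltransferase gene (chromosome 16, 35832874 to 35871544), had 162 (VpR83), 374 (VpR99), 980 (VpR126) and 211 CPM (VpR2020), against 32.7 and 49.9 CPM in the controls, and rose by 3.39 ± 0.87 (edgeR adjusted p = 0.0227), or by 2.60 without VpR126. Dtx3l, an E3 ubiquitin ligase gene (35926511 to 35939151), had 85.8 (VpR83), 168 (VpR99), 339 (VpR126) and 122 CPM (VpR2020), against 30.3 and 38.9 CPM in the controls, and rose by 2.37 ± 0.60 (edgeR adjusted p = 0.0211). Parp9, which encodes the partner of DTX3L (35938470 to 35972605), had 52.3 (VpR83), 94.1 (VpR99), 170 (VpR126) and 66.9 CPM (VpR2020), against 29.4 and 34.7 CPM in the controls, and rose by 1.58 ± 0.50 (edgeR adjusted p = 0.0429). The 3 genes were above both controls under every medium. Parp9 and Dtx3l lie head to head and share 458 exon bases on opposite strands, which cannot be separated without the strand setting of the counting. Parp9 was not called without VpR99 or VpR2020, by voom, or when libraries were scaled by upper quartiles or by totals only.

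Of the remaining induced genes, Phf11d, a PHD finger gene, was called. Phf11d (chromosome 14, 59347407 to 59365470) had 7.10 (VpR83), 33.0 (VpR99), 91.0 (VpR126) and 9.96 CPM (VpR2020), against 1.30 and 2.02 CPM in the controls, and rose by 4.42 ± 1.29 (edgeR adjusted p = 0.0340). Its fold change was 3.36 without VpR126, and its further losses of the call were without VpR99 and by voom. Ifi27l2a was the gene with VpR99 on top, at 25.8 (VpR83), 219 (VpR99), 97.3 (VpR126) and 28.1 CPM (VpR2020), against 37.4 and 47.8 CPM in the controls (1.12 ± 0.92, edgeR adjusted p = 0.354). Without VpR99 that fold change was 0.25. Xaf1, whose product counters the apoptosis inhibitor XIAP, and Ifi35 had fold changes of 1.90 ± 0.88 and 0.31 ± 0.51 and were not called.

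Upstream of the set, the interferon genes themselves were barely detected while their receptor genes were higher under all media. Of 18 type I interferon genes listed, 14 had 0 counts in all 6 libraries, each allowing up to 3 counts. Ifnb1, the interferon beta gene, had 8 counts under VpR99 medium and 4 under VpR126 medium, and 0 under VpR83 and VpR2020 media and in both controls. At 3 counts the limits on library totals were 0.107 and 0.155 CPM for VpR83 and VpR2020 and 0.109 and 0.161 CPM for the controls. All 18 genes together summed to 0.0732 (VpR83), 0.0811 (VpR99), 0.211 (VpR126) and 0 CPM (VpR2020), against 0.0333 and 0.047 CPM in the controls. These sums rest on 19 counts over the 6 libraries. The VpR99 sum lies below all of those limits, so the 0 counts of Ifnb1 cannot be told apart from its level under VpR99 medium. Ifnb1 did not pass the low-count filter and was not tested. Of 9 genes of receptors and JAK-STAT signalling, 6 were called higher and 1 lower, against 22.5% and 19.7% of all genes tested. Ifnar1 had 260 (VpR83), 218 (VpR99), 303 (VpR126) and 284 CPM (VpR2020), against 63.8 and 62.8 CPM in the controls, a rise of 2.07 ± 0.19 (edgeR adjusted p = 0.000897). Ifnar2 rose by 0.90 ± 0.19 (edgeR adjusted p = 0.0124), and the kinase genes Jak1 and Tyk2 by 0.64 ± 0.16 and 1.13 ± 0.26. The lines did not divide on the receptor genes as they did on the induced genes, with VpR99 the lowest line for both chains. VpR126 was still the highest line for 7 of the 9 receptor and JAK-STAT genes (31.7% of all genes). Ifnlr1, the receptor chain of type III interferons, fell by 3.24.

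**Figure D5:**
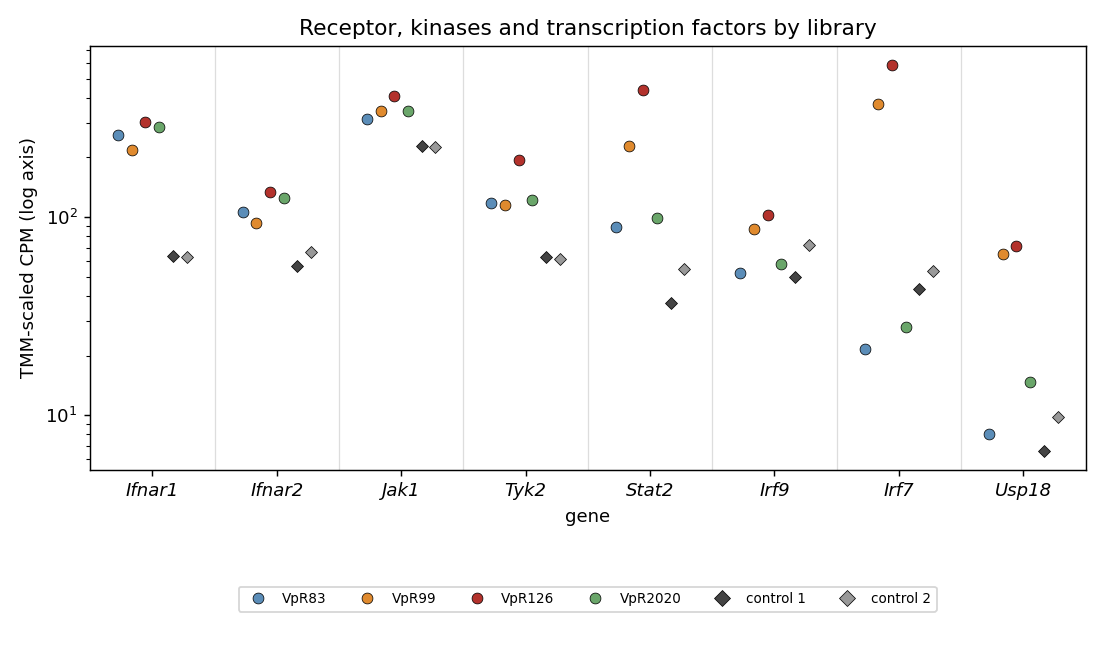
TMM-scaled CPM on a log axis for the receptor chains, kinases and transcription factors, and for Usp18, with circles for the 4 conditioned libraries and diamonds for the 2 controls. Ifnar1, Ifnar2, Jak1 and Tyk2 have all circles together above the diamonds, whereas Stat2, Irf7 and Usp18 have VpR99 and VpR126 far above the other media.

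Other sensor and interferon-induced gene lists were set beside the 41. Of 18 Toll-like receptor, adaptor and IRF genes, 13 were called higher (22.5% of all genes tested) and 1, Irf3, lower (19.7%), with a median log2 fold change of 1.28. Tlr4, Tlr8 and Tlr7, which encode receptors for lipopolysaccharide and single-stranded RNA, rose by 3.53 ± 0.17, 4.0 ± 0.32 and 4.21 ± 0.43 (edgeR adjusted p = 0.000151, 0.000693 and 0.00127). The medians of that list were 1.16 (VpR83), 1.08 (VpR99), 1.41 (VpR126) and 1.10 (VpR2020) log2 units over control, without the division seen in the 41 genes. VpR126 was the highest line for 11 of these 18 genes (31.7% of all genes). Of 53 further interferon-stimulated genes tested, 14 were called higher and 0 lower by edgeR, a share of higher calls near the 22.5% of all genes, with a median log2 fold change of 1.02. Of these 53, 46 were highest under VpR126 medium (31.7% of all genes) and 7 under VpR99 medium (28.9%). Ifi207, Fcgr1 and Slfn9 rose by 4.75 ± 0.53, 5.08 ± 0.59 and 3.48 ± 0.46 (edgeR adjusted p = 0.00154, 0.00170 and 0.00251). The interferon-induced GTPase list had medians of -0.25 (VpR83), 2.03 (VpR99), 3.66 (VpR126) and 1.65 (VpR2020), with 1 of 16 genes, Gbp7, called higher (22.5% of all genes). There VpR2020 came closer to VpR99 than in the 41 genes.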

How the data were processed

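Raw read counts per Ensembl mouse gene, whole numbers with no normalization, were deposited by the authors for 6 libraries. Per the labels' protocols, a stranded TruSeq kit was used on total RNA. The submitters' processing notes list Trimmomatic 0.38, STAR 2.5.2b and the build GRCm38. Neither the counter nor its annotation or strand setting is given in the sources used here. GENCODE M21, an annotation of GRCm38, gave symbols, coordinates and exon lengths for 45143 of 45706 identifiers.

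The main test was run with edgeR 4.0.16 under R 4.3.3 (filterByExpr at its defaults, TMM, robust quasi-likelihood test, group as the only term, two-sided). DESeq2 1.42.0 and limma 3.58.1 (voom) were alternatives, as were other scalings, no low-count filter, a fit without robust estimation, VpR99 thinned to 25716207 counts, and each library left out. Every one of the 41 genes is named. Values per library are given for the 4 largest called rises (no fall was called), the most abundant gene of each role, the 3 widest spreads between lines, Stat2, Irf9, Irf7 and Usp18, genes whose call hangs on 1 library, and a few more, in other lists too, chosen after their values were seen. The gene set, gene lists and tests were chosen with earlier results of these data known. Values of 1 further gene are not reported here. Total counts set the precision of each library.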

Additional observations from a re-analysis of the deposited data

How the results depend on the processing

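Of the 41 genes, 12 were called higher by edgeR (22.5% of all genes tested). The count was 3 without a low-count filter and 26 with DESeq2, which gave no adjusted p for Cxcl10. Over all genes the higher calls were 3195 of 29681 without the filter and 3938 of 15141 with DESeq2. Leaving out 1 library gave 0 to 21 calls, with 0 without either control, 6 without VpR99 and 21 without VpR83. Over all genes the higher calls were 3504 without VpR99 and 2927 without VpR83, and without either control they fell but did not vanish. RLE scaling, thinning VpR99, a fit without robust estimation, upper-quartile scaling, library totals only and voom gave 12, 12, 13, 9, 8 and 8. Over all genes, RLE scaling, thinning, the fit without robust estimation and voom gave 3345, 3400, 3438 and 3112 higher calls. No gene was called lower under any of these settings. The median log2 fold change of the set lay between 1.61 (without VpR126) and 2.63 (without VpR83). The fold change reversed, with no call, for Cmpk2 by voom (-0.32) and without VpR126 (-0.68), for Samd9l by voom (-0.12) and without VpR126 (-0.12), and for Ifi35 without VpR126 (-0.021). The cause was not tested. Upper-quartile scaling and library totals moved the median of all genes to -0.22 and -0.26 and the calls over all genes to 2738 higher and 4104 lower, and 2627 higher and 4171 lower, in place of 3410 and 2983. VpR126 stayed the highest line for 39 or 40 of the 41 genes under the other scalings and prior counts of 0.5 and 5. With library totals only, the scaling that moved the median of all genes to -0.26, genes of the set past 2-fold higher under VpR2020 medium were 11 in place of 17. No paired analysis was possible because the conditioned libraries carry no replicate numbers in the labels. The test rests on 2 controls and 1 library per line, and each gene had at least 16 counts in every library.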

Other observations

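Genes whose products restrain interferon signalling or remove the nucleic acids that start it moved in both directions. Of 16 tested, 4 were called higher and 4 lower in conditioned medium (edgeR, median log2 fold change 0.10), against 22.5% and 19.7% of all genes. The 3 subunit genes of RNase H2, which removes ribonucleotides from DNA, fell together: Rnaseh2a, Rnaseh2b and Rnaseh2c fell by 1.10, 1.14 and 1.44 on the log2 scale (edgeR adjusted p = 0.0104, 0.00796 and 0.00397). Dnase2a, the lysosomal DNase gene, rose by 1.82 ± 0.27, with 146 (VpR83), 97.4 (VpR99), 161 (VpR126) and 179 CPM (VpR2020), against 41.9 and 40.9 CPM in the controls. Samhd1, a nucleotide hydrolase gene, had 274 (VpR83), 584.5 (VpR99), 1068 (VpR126) and 372 CPM (VpR2020), against 428 and 482 CPM in the controls, and was not called. Its low pair of media lay below both controls and its high pair above, as for Irf7.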
